A study of Ursus arctos with 5 samples.

Results

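Skeletal muscle fibres carry organelles, nuclei and membranes along microtubules and actin, and the genes of these tracks and motors were followed here in the gastrocnemius, a calf muscle, of grizzly bears (Ursus arctos) during hibernation. The members were chosen by gene symbol: cytoplasmic dynein and dynactin, kinesins with their light chains and the adaptors TRAK1 and TRAK2, tubulins, the gamma-tubulin complex, tubulin ligases of the TTLL family, microtubule-associated proteins, and unconventional myosins. The rule found 90 transcripts of 47 genes among 9093 transcripts (4873 genes) that carry a human gene name, out of 26614 transcripts in the deposited table. By role these were 8 dynein and dynactin genes, 3 light chain and adaptor genes, 12 kinesins, 3 microtubule-associated proteins, 8 genes of tubulins, gamma-tubulin complex and ligases, and 13 unconventional myosins. The rule also covers axonemal dyneins (DNAH) and alpha-tubulins, of which none was listed, and these were not analysed here.

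The study took biopsies from the same bears in October, when they were active, and in February, when they hibernated, to ask which genes differ between the states. Single-end RNA-seq of 2 bears, Tia and Star, gave 4 libraries, 1 per bear and state, so that n = 2 bears in each state with no replicate within a bear. The labels name no treatment, they give every bear as an adult of 10 years, and the study's own table heads Tia's columns as a subadult and Star's as an adult. Values are RPKM, reads corrected for the length of the transcript and the depth of the library, and every transcript in the table is at 1 RPKM or more in all 4 libraries. A log2 difference below compares log2(RPKM + 0.5) in a bear's hibernating library with its active one, positive where hibernation was higher, on a scale that understates the difference of low transcripts. Where no bear is named it is the mean of both.

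By way of background, kinesins walk mostly towards the growing ends of microtubules and cytoplasmic dynein, helped by dynactin, walks the other way. Most unconventional myosins move on actin and do not build the thick filaments of the sarcomere. In muscle the microtubules form a lattice around nuclei, mitochondria and the sarcomeres, and dynein and kinesin-1 are known for spacing the many nuclei of a fibre. Tubulin ligases add glutamate or glycine chains to tubulin tails, and these marks tune which motors and severing enzymes act on a microtubule.

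The libraries held between 44.7 and 54.2 M (mega) aligned reads. Behind a value of a member stood between 28.0 and 15818 reads, with a median of 576, and 25 of the 90 member transcripts had a value under 2 RPKM in at least 1 library. Of 14 skeletal muscle markers 5 were listed, among them MYH1, MYH2 and MYH7 at 1295 to 7801 RPKM over the libraries. Of 10 fat cell markers 4 were listed, with a summed level of 450 RPKM in the active library of Tia against 98.0 in its hibernating library and 51.2 and 48.8 in the hibernating and active libraries of Star. The 5 listed of 9 fibroblast and matrix markers summed to 342, 279, 232 and 162 RPKM in the same order. The active library of Tia was highest in all 4 listed fat cell markers, LPL, CD36, SCD and FASN. It was also highest in COL1A1, FBN1 and FN1, with 193 RPKM of COL1A1 against at most 10.95 in the others. For FBN1 it held 24.9 RPKM against at most 14.1, and for FN1 4.88 against at most 2.37. The highest matrix sum rested on COL1A1, since COL3A1 and COL1A2 were lowest in that library, at 116 and 2.59 RPKM. No defining ciliated cell marker (0 of 6) or blood marker (0 of 4) was listed.

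Most of the 47 genes were expressed at a low level, and a few stood far above the rest. With each gene taken by its most read transcript, KIFC2 was the most abundant with 157 and 174 RPKM in the hibernating and active libraries of Tia and 273 and 311 RPKM in those of Star. KIF1C followed with 109 and 115 RPKM in Tia and 145 and 173 RPKM in Star. TRAK1 had 76.0 and 88.8 RPKM in Tia and 86.0 and 97.1 RPKM in Star. These 3 were lower in hibernation than in activity in each bear, and KIFC2 and KIF1C were higher in Star than in Tia in both states. MYO15A, with 72.5 and 32.2 RPKM in Tia and 81.6 and 60.8 RPKM in Star, and KIF19 were the only other members with a mean above 30 RPKM. The transcripts behind these 5 values were between 519 and 1854 bases long, while the heavy chain of dynein, DYNC1H1, was assembled over 14216 bases and stood at 22.2 and 17.7 RPKM in Tia and 16.7 and 21.3 RPKM in Star. At the other end KIF4B, KIF2A, MYO5B, MYO1F and KIF13B stayed between 1.20 and 3.20 RPKM, near the floor of the table, so that a lower level there could not have been seen. The plot of levels shows that the span over libraries of most genes is narrow beside the distance between genes.

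**Figure D1:**
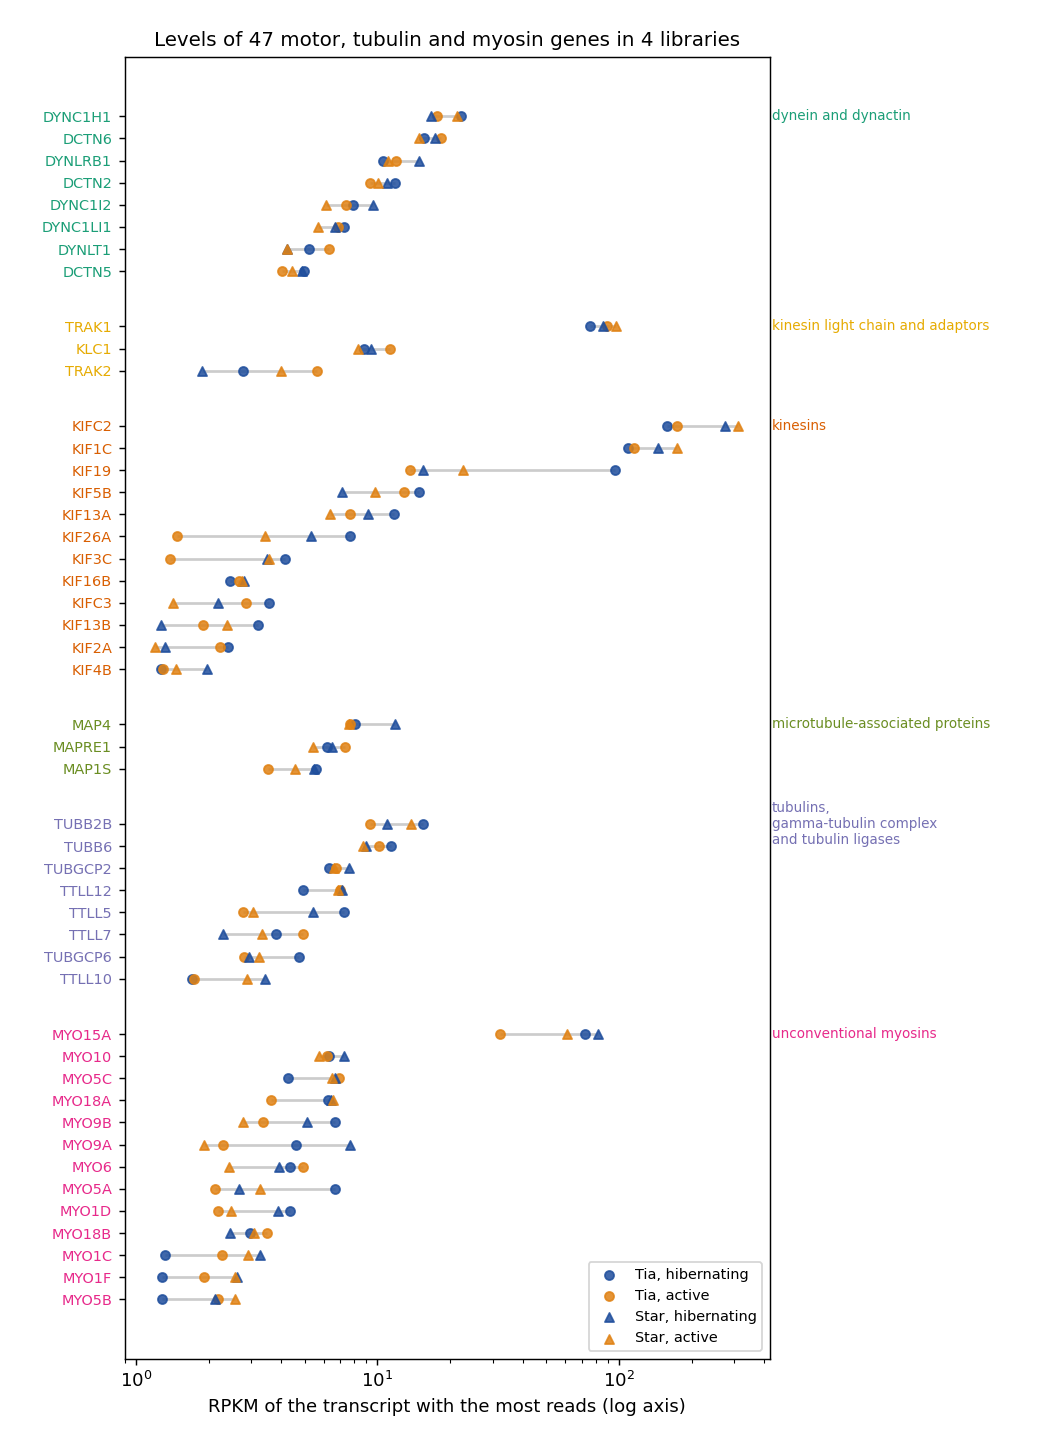
RPKM (horizontal log axis) of the 47 genes, each by its transcript with the most reads, with circles for Tia, triangles for Star, blue for hibernating and orange for active libraries, and a grey line over the range. Genes are grouped by role and ordered by mean level. KIFC2 reached 311 RPKM and MYO5B, at the bottom of the myosins, at most 2.57, and the blue points lie to the right of both orange ones for TTLL5, MYO9A, MYO9B and MYO1D and to the left for TRAK2.

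With limma, no member reached an adjusted p of 0.05 between hibernating and active libraries, and nor did any of the 9093 annotated transcripts (0%). The adjusted p of the members lay between 0.541 and 0.992 over the 2 against 2 libraries. With the libraries left unpaired by bear, the smallest two-sided p of an exact permutation test of a single gene is 0.333. At an unadjusted p under 0.05, 7 member transcripts were higher and 1 was lower in hibernation, against 7.19% and 1.89% of the annotated transcripts, which makes 7.78% and 1.11% of the members. A score after the description of NOISeq, the method of the study, set each transcript against 53228 differences between Tia and Star in the same state and gives the fraction of them that its own difference between states matches or passes both as a ratio and in RPKM. It reached 0.8 for 6 members that were higher in hibernation (6.67%) and for 0 that were lower, where the background was 2.10% higher and 1.51% lower. The states did not overlap, with both hibernating values above both active ones, for 31 members (34.4%), and with both below for 6 (6.67%), against a background of 34.6% and 8.80%. On RPKM + 0.5, a level at least 1.5-fold higher in hibernation in each bear was seen in 6 members, beside a background of 3.54%. A level at least 1.5-fold lower was seen in 1, TRAK2, beside 1.04%. All counts of members by fold below are on this scale. In RPKM alone the longest transcript of KIF26A (5.20-fold in Tia, 1.56-fold in Star) also lay above 1.5-fold. So did a transcript each of MYO1D (1.99-fold and 1.56-fold) and MYO9B (1.59-fold and 1.56-fold). The members with the higher scores and folds were transcripts of TTLL5, TUBGCP6, KIF19, KIF26A, MYO9A, MYO9B and MYO15A, and the shares without overlap were close to those of all named transcripts.

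The median log2 difference over member transcripts was 0.21, with 0.24 in Tia and 0.13 in Star, beside 0.13 over all annotated transcripts. Over the 47 genes it was 0.12, with 0.08 in Tia and 0.11 in Star, beside 0.15 over the 4873 annotated genes. In both bears 41 member transcripts (45.6%) were higher in hibernation and 12 (13.3%) lower, beside 47.8% and 17.2% of the annotated transcripts, while 37 (41.1%) differed in opposite directions, beside 35.0%. Libraries rescaled by the median ratio or by the upper quartile shifted the median over all annotated transcripts by -0.15 and -0.18. The score of at least 0.8 was then reached by 3 higher members, KIF19, KIF26A and MYO9A, and by 1 lower, TRAK2, under either rescaling, beside a background of 1.20% and 2.38% under the median ratio and of 1.09% and 2.52% under the upper quartile. Under the median ratio 22 members were higher and 26 lower in both bears, beside 28.9% and 33.3% of the annotated transcripts. Under the upper quartile 22 were higher and 27 lower, beside 26.4% and 36.5%. The members without overlap became 15 higher and 15 lower under the median ratio and 14 and 18 under the upper quartile, beside a background of 19.0% and 18.1%, and of 17.1% and 20.5%. Members at least 1.5-fold higher in each bear became 3 and 2, beside 1.28% and 1.19%.

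**Figure D2:**
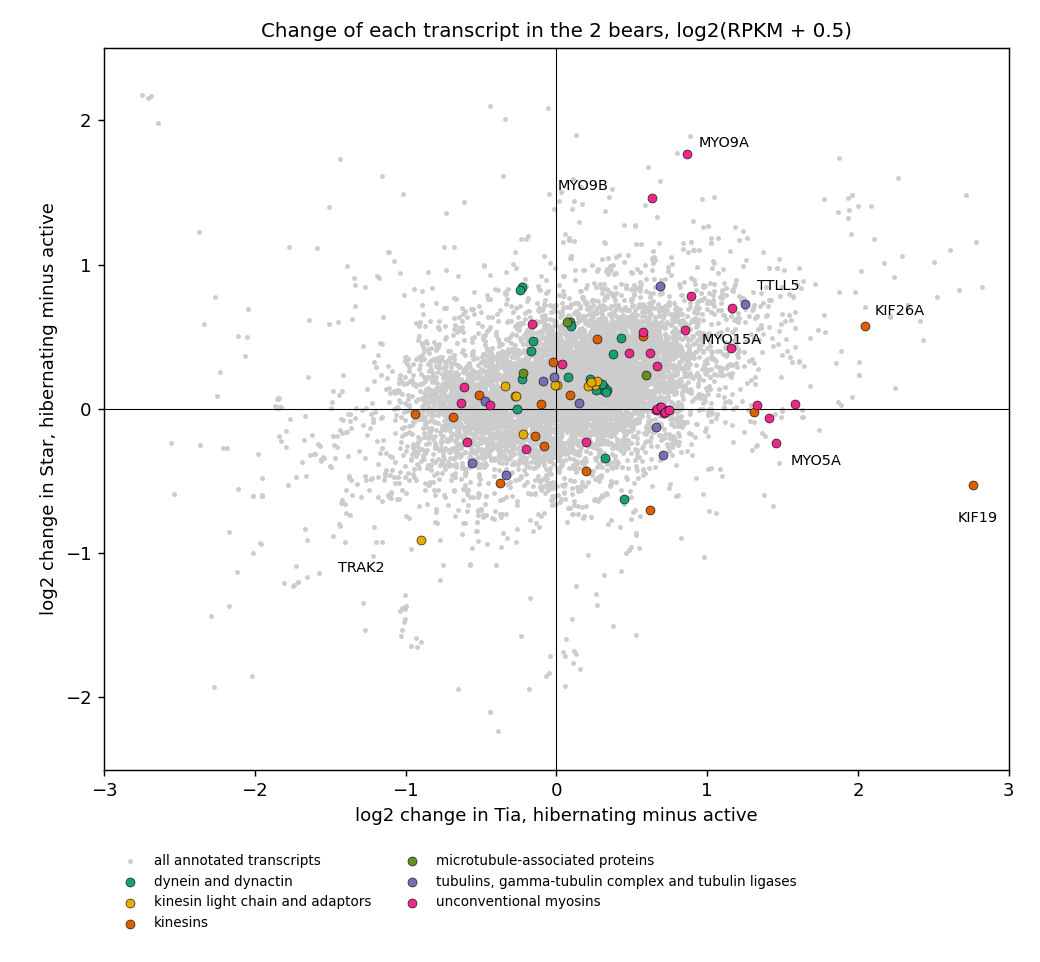
Log2 difference, hibernating minus active, of each annotated transcript in Tia (horizontal axis) and in Star (vertical axis), on log2(RPKM + 0.5). Grey points are all 9093 annotated transcripts, of which 14 lie outside the axes, and coloured points are the 90 members by role. MYO9A, MYO9B, TTLL5 and KIF26A lie in the upper right, TRAK2 in the lower left at -0.90 and -0.91, and KIF19 and the named transcript of MYO5A far to the right with a difference below 0 in Star.

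Of the 20 transcripts of cytoplasmic dynein and dynactin, 12 were higher in hibernation in both bears and 1 was lower, beside 47.8% and 17.2% of all annotated transcripts. In 11 the hibernating values lay above both active ones, beside the 34.6% of the background, and in 0 below, but all of these except that of DCTN5 came from DCTN2, DYNC1I2 and DYNC1H1. By gene 4 of 8 were higher in both bears, 1 was lower and 3 had opposite signs. The median over the 8 genes was 0.13 and turned to -0.02 and -0.06 under the 2 rescalings, so its sign rests on the scaling. DCTN2, the dynactin subunit dynamitin, had 4 transcripts with log2 differences between 0.22 and 0.24, and the one with the most reads stood at 11.8 and 9.30 RPKM in Tia and 10.9 and 10.0 RPKM in Star. DYNC1I2, an intermediate chain that joins the motor to dynactin, had 6 transcripts with differences between 0.29 and 0.46, of which the longest stood at 7.94 and 7.42 RPKM in Tia and 9.55 and 6.14 RPKM in Star. The differences of DYNC1I2 were larger in Star, at 0.38 to 0.85, than in Tia, at -0.24 to 0.43. The 14216-base transcript of DYNC1H1, the motor subunit itself, was higher in hibernation in Tia and lower in Star, with a log2 difference of -0.01 (SE 0.24, limma adjusted p = 0.992). The 4 transcripts of DYNC1H1 had differences between -0.09 and 0.24. Those of 1082 and 1052 bases were higher in hibernation in both bears without overlap, and that of 1861 bases had opposite signs. DCTN6, a subunit of the pointed end of dynactin, had 15.6 and 18.3 RPKM in Tia and 17.3 and 14.9 RPKM in Star, again with opposite signs in the bears. DYNC1LI1, DYNLRB1, DYNLT1 and DCTN5, the light intermediate chain, a pair of light chains and a further dynactin subunit, had log2 differences between -0.13 and 0.20.

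Among the parts that tie kinesin-1 to its cargo, TRAK2 had the most negative log2 difference of all members. TRAK1 and TRAK2 are adaptors that join mitochondria to motors. TRAK2 was at 2.78 RPKM in the hibernating and 5.62 RPKM in the active library of Tia, and at 1.88 and 3.98 RPKM in those of Star. Both hibernating values lay below both active ones, at 0.49 and 0.47 times the active level. The log2 difference was -0.91 (SE 0.28, limma adjusted p = 0.541), and the score was 0.751 and passed 0.8 under both rescalings. The abundant transcript of TRAK1 had a log2 difference of -0.20 (SE 0.22), with no overlap between the states. KLC1, a kinesin light chain, had 5 transcripts with differences between -0.09 and 0.09, and its most read one stood at 8.76 and 11.2 RPKM in Tia and 9.36 and 8.34 RPKM in Star.

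Of the 16 kinesin transcripts, 4 had both values of Tia above both of Star and 6 the reverse, beside 18.8% and 20.5% of the annotated transcripts. In 2 both hibernating values lay above both active ones and in 1 the reverse, beside 34.6% and 8.80%. KIF19, known as a kinesin that shortens microtubules at the tips of cilia, had 95.9 RPKM in the hibernating library of Tia and 13.7 in its active library, while Star had 15.5 and 22.6 RPKM. A single library was thus high, with 6669 reads on a transcript of 1389 bases, and the other 3 overlapped. Its log2 differences were 2.76 in Tia and -0.53 in Star, its score of 0.969 the highest of the members, and its adjusted p was 0.687 in limma's test. KIF26A, a kinesin that binds microtubules without moving on them, had 3 transcripts. The longest stood at 7.68 and 1.48 RPKM in Tia and 5.31 and 3.41 RPKM in Star, a log2 difference of 1.31 (SE 0.39, limma adjusted p = 0.541), and its score was 0.860. The other two were lower in hibernation in Tia, by log2 differences of -0.52 and -0.94, and stood at 0.10 and -0.04 in Star, so the transcripts that carry the name KIF26A did not go one way.

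KIF3C, a subunit of a heterodimeric kinesin, had 4.16 and 1.38 RPKM in Tia and 3.49 and 3.55 RPKM in Star. The active library of Tia was low and the other 3 were alike. KIF13A, a vesicle kinesin, was higher in hibernation in both bears, with 11.7 and 7.67 RPKM in Tia and 9.18 and 6.33 RPKM in Star and a log2 difference of 0.54 (SE 0.24). KIF5B, the ubiquitous heavy chain of kinesin-1, had 14.9 and 12.9 RPKM in Tia and 7.13 and 9.78 RPKM in Star, which separates the bears and not the states. Both transcripts of KIFC2, a motor towards the minus end, and both of KIF1C, a vesicle motor, were lower in hibernation in both bears, with mean log2 differences between -0.44 and -0.16. For KIFC2 the transcript of 2451 bases was at 4.61 and 6.13 RPKM in Tia and 4.33 and 6.40 RPKM in Star, without overlap of the states. The remaining kinesins were low. KIFC3, a minus-end motor, was higher in hibernation in both bears, at 3.56 and 2.87 RPKM in Tia and 2.20 and 1.43 RPKM in Star. KIF13B, a vesicle kinesin, had 3.20 and 1.90 RPKM in Tia and 1.27 and 2.38 RPKM in Star, with opposite signs and between 33.0 and 77.0 reads behind each value. KIF2A, which takes microtubules apart from their ends, the endosome motor KIF16B and the mitotic kinesin KIF4B had log2 differences between -0.03 and 0.15. The 12 kinesins had a median log2 difference of 0.12, which became -0.0015 and -0.031 under the rescalings.

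Of the genes that make, seed and mark microtubules, TTLL5, a ligase that adds glutamate to tubulin, differed most. It stood at 7.28 and 2.77 RPKM in Tia and 5.39 and 3.06 RPKM in Star, or 2.63-fold and 1.76-fold higher in hibernation. The hibernating values lay above the active ones in both bears. The log2 difference was 0.99 (SE 0.25, limma adjusted p = 0.541), and the score was 0.807. Under both rescalings the score of TTLL5 fell below 0.8, and TTLL5 was no longer among the members at least 1.5-fold higher in each bear. TTLL7, likewise a glutamate ligase, was lower in hibernation in both bears, with 3.80 and 4.93 RPKM in Tia and 2.29 and 3.34 RPKM in Star. TTLL12 was lower in both bears by its shorter transcript, with 4.02 and 6.17 RPKM in Tia and 4.03 and 5.37 RPKM in Star, and by its longer one in Tia alone. The ligases thus held values on both sides, and TTLL10, which adds glycine, had a log2 difference of 0.10.

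TUBGCP6, a part of the gamma-tubulin ring that seeds microtubules, had 2 transcripts. The one of 607 bases stood at 4.04 and 2.32 RPKM in Tia and 4.33 and 2.18 RPKM in Star, a log2 difference of 0.77 (SE 0.21). The one of 2567 bases, with more reads, stood at 4.72 and 2.80 RPKM in Tia and 2.93 and 3.24 RPKM in Star. The shorter was therefore higher in both bears and the longer in Tia only. TUBGCP2 of the same complex had a log2 difference of 0.05. The beta-tubulins TUBB2B, with 15.5 and 9.31 RPKM in Tia and 10.9 and 13.8 RPKM in Star, and TUBB6, with 11.4 and 10.2 RPKM in Tia and 8.99 and 8.74 RPKM in Star, had log2 differences of 0.19 and 0.09 that turned below 0 under upper-quartile scaling and, for TUBB6, under the median ratio as well. Beta-tubulins are close copies of each other, and how reads that fit more than one were assigned is not given in the sources used here, so their values are uncertain.

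Among microtubule-associated proteins, MAP4, which stabilizes microtubules and is made in muscle, had 8.11 and 7.69 RPKM in Tia and 11.8 and 7.62 RPKM in Star. The hibernating library of Star was high and the other 3 were alike. MAP1S had a log2 difference of 0.41 (SE 0.23) with no overlap between the states. MAPRE1, the plus-end protein known as EB1, had 6.20 and 7.32 RPKM in Tia and 6.50 and 5.38 RPKM in Star, and its log2 difference of 0.01 turned to -0.14 and -0.18 under the rescalings.

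The unconventional myosins made up 30 of the 90 member transcripts. They held 3 of the 6 with a score of at least 0.8, beside 2.10% of the annotated transcripts. They also held 4 of the 6 at least 1.5-fold higher in each bear, beside 3.54%. These came from MYO9A, MYO9B and MYO15A. Under either rescaling MYO9A alone of the myosins kept the score, and only MYO9A and the most read transcript of MYO9B kept the fold. Of the 30 myosin transcripts, 15 were higher in hibernation in both bears and 2 lower, beside the 47.8% and 17.2% of the background. In 14 the hibernating values lay above both active ones and in 2, MYO5B and MYO18B, below, beside 34.6% and 8.80%. By gene 5 of 13 were higher in both bears and 2 lower, beside 48.7% and 16.1% of all annotated genes. The median log2 difference of the 13 genes was 0.21 and stayed above 0, at 0.07 and 0.03, under the rescalings, while it was 0.03 in Tia and 0.15 in Star. The lowest of the 4 libraries was the active one of Tia for 17 of the 30 transcripts, 9 of them of MYO18A and 4 of MYO5A, and for 32.2% of the annotated transcripts. By gene it was for 4 of 13, beside 30.8% of the annotated genes. The summed fat markers were highest in that same library, as were COL1A1, FBN1 and FN1 but not COL3A1 or COL1A2. The part of these markers in these values was not tested. In such bulk samples fewer cells of a type and less RNA per cell cannot be told apart.

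The class IX myosins were higher in hibernation in both bears in 5 of 5 transcripts, 4 of them of MYO9B, beside the 47.8% of the background. MYO9A, a single transcript of 510 bases, stood at 4.61 and 2.30 RPKM in Tia and 7.71 and 1.92 RPKM in Star, or 2.00-fold and 4.02-fold higher in hibernation. Its log2 difference of 1.32 (SE 0.30, limma adjusted p = 0.541) was the largest of the members, its score was 0.867, and between 43.7 and 213 reads stood behind each value. MYO9B had 4 transcripts of 700 to 2388 bases with log2 differences between 0.50 and 1.05. The one with the most reads stood at 6.66 and 3.36 RPKM in Tia and 5.11 and 2.77 RPKM in Star, a log2 difference of 0.84 (SE 0.25) and a score of 0.753. The longest stood at 2.69 and 1.56 RPKM in Tia and 7.37 and 2.35 RPKM in Star, with a score of 0.822. In each of the 5 transcripts except the shortest of MYO9B both hibernating values lay above both active ones, and the level of the hibernating library of Star in the longest was high beside the rest.

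MYO15A, the class XV myosin known from the hair cells of the inner ear, had 2 transcripts that were both higher in both bears. That of 2386 bases stood at 14.6 and 6.25 RPKM in Tia and 10.4 and 6.23 RPKM in Star, with a log2 difference of 0.93 (SE 0.24) and a score of 0.836. That of 719 bases was more abundant, with the values given above, a log2 difference of 0.79 (SE 0.34) and a score just under 0.8. The active libraries were nearly level for the longer one, whereas for the shorter one the active library of Tia stood well below that of Star. MYO1D, a class I myosin that binds membranes, was higher in hibernation in both of its transcripts, the longer with 4.37 and 2.20 RPKM in Tia and 3.86 and 2.48 RPKM in Star and a log2 difference of 0.70 (SE 0.22).

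For MYO5A and MYO18A the log2 differences were large in Tia and near or below 0 in Star, a difference between the bears that was not tested. MYO5A, a carrier of vesicles and organelles, had 4 transcripts with log2 differences of 1.33 to 1.58 in Tia and of -0.24 to 0.03 in Star. Its most read transcript was at 6.68 and 2.12 RPKM in Tia and 2.68 and 3.25 RPKM in Star, so that the hibernating library of Tia was high and the other 3 were close together. MYO18A, a myosin that binds Golgi membranes and actin, had 8 transcripts of 7272 to 8437 bases that differed by 0.66 to 0.74 in Tia and by -0.03 to 0.02 in Star. The 4 longest stood at 4.54 to 4.57 RPKM in the hibernating and 2.62 to 2.71 in the active library of Tia, and at 4.30 to 4.45 RPKM in both libraries of Star. Here the active library of Tia was the low one. The ninth transcript of MYO18A, of 2071 bases, was higher in hibernation in both bears, with 8.64 and 6.05 RPKM in Tia and 10.5 and 7.95 RPKM in Star. Assembled transcripts of nearly the same length and level can share most of their sequence and reads, so the 8 long ones are not separate observations.

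The other myosins showed no common direction. MYO10, which builds filopodia, had 6.32 and 6.16 RPKM in Tia and 7.25 and 5.74 RPKM in Star, a log2 difference of 0.17 that was -0.02 under upper-quartile scaling. MYO6, the myosin that walks towards the minus end of actin, had log2 differences of -0.16 in Tia and 0.59 in Star by its longer transcript. MYO5B, MYO5C, MYO18B, MYO1C and MYO1F had mean log2 differences between -0.41 and -0.21, of which MYO5B and MYO18B, the latter a myosin of the sarcomere, were lower in hibernation in both bears.

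**Figure D3:**
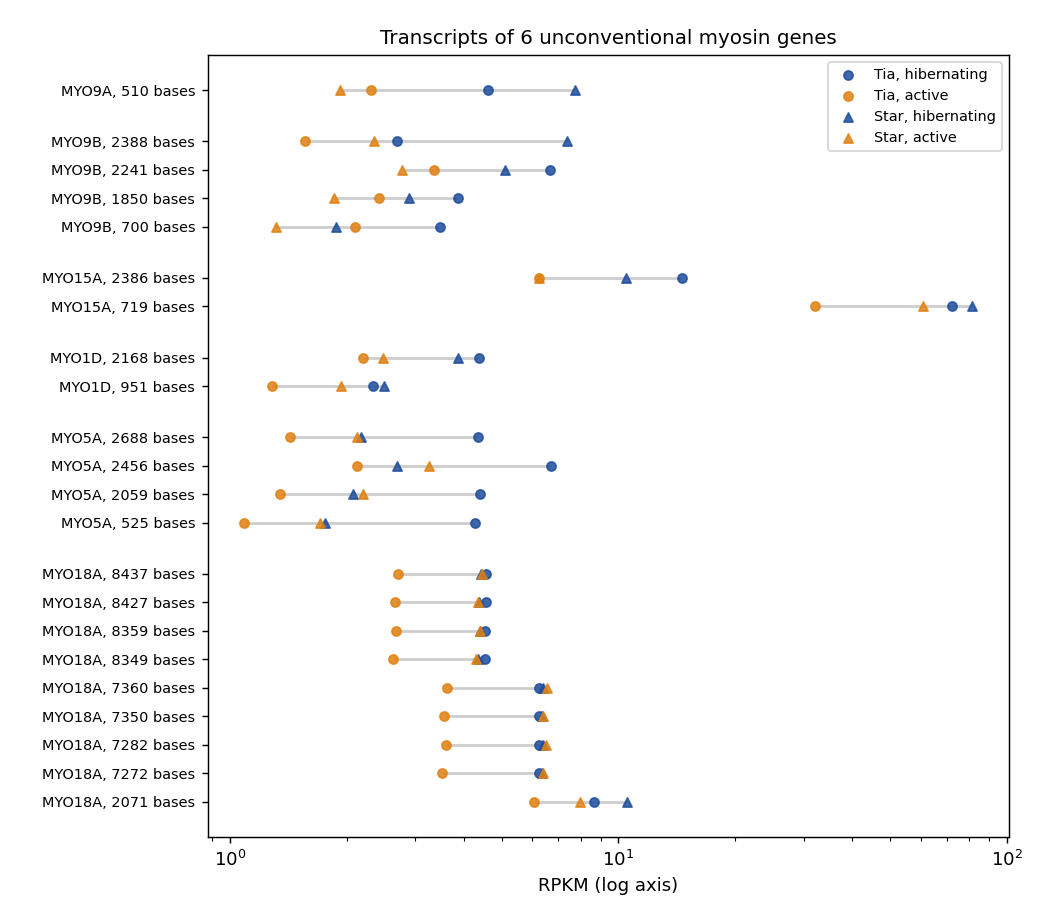
RPKM (horizontal log axis) of each transcript of 6 myosin genes, labelled with its length, with circles for Tia, triangles for Star, blue for hibernating and orange for active libraries. In MYO9A, MYO9B and MYO1D the orange points lie left of the blue ones of the same bear, while in MYO5A a single blue circle lies to the right, between 4.26 and 6.68 RPKM, and in the 8 long transcripts of MYO18A a single orange circle lies to the left, between 2.62 and 3.62 RPKM.

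Several symbols covered transcripts at very different levels. Of the 47 genes, 17 had 2 or more transcripts, and in 3 of these the mean level of the highest was over 10 times that of the lowest. TRAK1 had 4 transcripts of 3098 to 3252 bases at 1.09 to 1.92 RPKM and 1 of 1854 bases 61.0 times above the lowest of them in mean. KIFC2 spanned 42.6-fold and KIF1C 26.0-fold, and MYO15A 6.58-fold. In KIFC2, KIF1C and MYO15A the more abundant transcript was the shorter one, with 519, 907 and 719 bases. The 4 low transcripts of TRAK1 had log2 differences of 0.16 to 0.27 in either bear, while the abundant one was lower in hibernation in both. All transcripts were higher in both bears in 4 of the 17 genes (DCTN2, MYO15A, MYO1D and MYO9B) and all were lower in 2 (KIF1C and KIFC2). In 5 the transcripts of a gene had mean differences of both signs. The same counts over all annotated genes are not given here, so these are not read against a background. Transcripts of a gene can share reads, so their agreement is not separate support. Names came from alignment to human proteins, and whether a short abundant transcript stands for the level of the whole gene was not tested.

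The bears themselves differed in about as many members as in the table at large. Both values of Tia lay above both of Star in 16 members (17.8%), against 18.8% of the annotated transcripts, and both of Star lay above both of Tia in 15 (16.7%), against 20.5%. Higher in Tia were KIF5B, DYNC1LI1, DYNLT1, TUBB6, both transcripts of MYO6 and the 4 low transcripts of TRAK1, and higher in Star were the abundant transcript of KIFC2, both transcripts of KIF1C, 4 long transcripts of MYO18A, MYO1C and MYO1F. The 4 listed of 8 slow fibre markers also summed higher in Tia, to 6344 and 5662 RPKM against 2668 and 3086 in Star, and the 4 listed of 9 fast fibre markers lower, to 7260 and 9640 RPKM against 13746 and 13978. The part of fibre type in the differences between bears was not tested.

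The partners of these motors were followed with a list of 83 genes that the rule did not take, of which 35 were in the table. Of these, 20 were higher in hibernation in both bears and 4 lower, beside 48.7% and 16.1% of the annotated genes. By limma none passed after adjustment, and 2 that were higher had an unadjusted p under 0.05, beside 7.84% of the annotated genes. None reached a score of 0.8 or a 1.5-fold difference in each bear, and 12 had hibernating values above both active ones against 1 below, beside 35.8% and 8.11% of the annotated genes. The median log2 difference was 0.16, beside 0.15 over all annotated genes. SUN1, which ties the nucleus to the motors through the nuclear envelope, stood at 26.4 and 18.5 RPKM in Tia and 23.9 and 16.2 RPKM in Star. KATNA1, the catalytic subunit of the severing enzyme katanin, stood at 9.41 and 5.45 RPKM in Tia and 7.39 and 5.34 RPKM in Star. RHOT1, the mitochondrial anchor of the TRAK adaptors, stood at 4.63 and 2.63 RPKM in Tia and 3.60 and 2.67 RPKM in Star, so that its values lay on the other side from those of TRAK2. PAFAH1B1, a regulator of dynein known as LIS1, had a log2 difference of -0.05.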

How the data were processed

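Gastrocnemius RNA from 2 bears was sequenced in October and February. Per the study's methods, the authors assembled transcripts de novo from 454 and paired-end Illumina reads, named them by BLAST to human proteins, aligned single-end reads with SOAP2 (at most 2 mismatches) and deposited RPKM with transcript lengths. How reads that fit several transcripts were shared out is not given in the sources used here. Each state has 1 single-end sample in the labels, covering both bears, which were told apart by the column names of the deposited table. The pooled and paired-end samples were not used here.

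The depth of each library was read from the step of RPKM times length, whole to within 0.05 reads for 93.7% to 96.0% of low values of transcripts of up to 600 bases. On log2(RPKM + 0.5), limma 3.58.1 (R 4.3.3, trended prior variance, state only) was fitted to all 9093 annotated transcripts with Benjamini-Hochberg adjustment. Bear pairs the samples, being the same animal (r = 0.356 across transcripts for the bear difference in both states), and was an alternative as replicate block. A gene was represented by its transcript with the most reads. Values in every library were given for members with a score of at least 0.8, a 1.5-fold difference in both bears or a log2 difference of at least 1 in 1 bear or in opposite directions, for the 2 most abundant genes of each role and for genes with 3 or more transcripts. Others named were chosen after their values were seen. The members, lists and this rule were chosen with earlier results of these data known. Methods were tested on simulated data. Alternatives changed pseudocount, scaling, filter, prior, thresholds, transcript choice and bear. Of the 47 symbols, 43 were found in RefSeq's UrsArc2.0 annotation, whose coordinates were not used. Python 3.11.15, pandas 2.3.3, numpy 2.4.6 and matplotlib 3.10.9 handled tables and plots.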

Additional observations from a re-analysis of the deposited data

Results flagged for a closer look

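In 3 genes the most read transcript differed by at least 1 on the log2 scale in Tia and in the opposite direction in Star. The log2 difference between the states in Tia minus that in Star was 3.29 for KIF19, 1.69 for MYO5A and 1.33 for KIF3C. With 1 library per bear and state, this difference between the bears was not tested. For KIF19 the hibernating library of Tia was the high one, at 95.9 RPKM, and for KIF3C the active library of Tia was the low one, at 1.38 RPKM. For KIF3C the value of Star was close to 0 (-0.02), and for MYO5A it was -0.24.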

How the results depend on the processing

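With limma, no member reached an adjusted p of 0.05 under any alternative run, including bear as replicate block, where the smallest adjusted p of a member was 0.340. With the median ratio, the members with a score of at least 0.8 went from 6 higher and 0 lower to 3 and 1, those without overlap from 31 higher and 6 lower to 15 and 15, and those at least 1.5-fold higher in both bears from 6 to 3. With the upper quartile these counts were 3 and 1, 14 and 18, and 2. The count at least 1.5-fold lower in both bears stayed at 1 of 90 under both scalings. The share of annotated transcripts lower by that fold rose from 1.04% to 2.34% under the median ratio and 2.5% under the upper quartile. The background moved too, to 19.0% higher and 18.1% lower without overlap under the median ratio and 17.1% and 20.5% under the upper quartile. The score at 0.8 was kept under both scalings by KIF19, KIF26A and MYO9A, and TRAK2 then passed it on the lower side. The median log2 difference over transcripts was 0.067 and 0.035 under the scalings, and 0.13 to 0.24 with each bear left out, and that over genes -0.029 and -0.060, and 0.078 to 0.11. For the next counts, by a filter on level, other thresholds and another added value, no share over all annotated transcripts is given here. They are therefore not read against a background. With a mean of 5 RPKM or more, 42 transcripts remained, of which 2 had the score and 15 were higher and 2 lower without overlap. Of these 42, 1 was at least 1.5-fold higher and 0 lower in both bears. A score of 0.9 left 1 member, KIF19. On RPKM + 0.5, a difference of at least 25% in both bears gave 15 higher and 4 lower, and a fold of 2 gave 0 and 0. In RPKM alone MYO9A was 2.00-fold higher in Tia and 4.02-fold in Star, and TRAK2 stood at 0.49 and 0.47 times its active level. With 0.1 or 1 added in place of 0.5, 9 and 5 members were at least 1.5-fold higher in both bears and 1 and 1 lower. By the most read transcript of each gene, an alternative chosen after seeing the data, 13 were without overlap and higher (27.7% of 47, background 35.8%) and 4 lower (8.51%, background 8.11%), and 3 were 1.5-fold higher (background 3.84%) and 1 lower (1.01%). Of 181 alternative values of 21 named genes, 174 kept their direction. The other 7 were DYNC1H1 with summed transcripts (0.010), MAPRE1 (-0.14 and -0.18) and TUBB6 (-0.063 and -0.10) under the median ratio and the upper quartile, and MYO10 (-0.016) and TUBB2B (-0.0056) under the upper quartile. The cause was not tested. Few reads limit short members near 1 RPKM, such as KIF4B, of 442 bases, with 28.0 reads in a library.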
